A study of Mus musculus with 2 samples.

Results

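Imprinted genes were followed in cells sorted from the embryonic mouse sinoatrial node, where the heartbeat is started. A list of 39 imprinted genes was matched by gene symbol to the deposited expression table, and 25 of them were among its 12557 genes. Of these 25, 12 are expressed from the copy inherited from the father and 13 from the copy inherited from the mother, by textbook assignment. Some of the 13 are imprinted mainly in placenta or brain. The other 14 (Dlk1, Kcnq1ot1, Usp29, Peg10, Magel2, Snurf, Zrsr1, Rasgrf1, Zdbf2, Peg13, Rian, Mirg, Phlda2 and Slc22a18) were not measured here, and 10 of those are paternally expressed. Every gene of the table reaches 1 RPKM (reads per kilobase of counted sequence, scaled to the size of the library) in at least 1 library.

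The study compared 2 libraries, 1 per genotype, so there is no replicate error and no test was made. Both genotypes were ICR embryos with Hcn4-CreERT2, a recombinase that tamoxifen switches on in cells expressing the pacemaker channel gene Hcn4, and with Rosa-tdTomato, a red reporter. The mutant library came from Isl1f/f embryos, whose Isl1 gene can be cut out by the recombinase, and the control library from Isl1+/+ embryos, which received tamoxifen as well. Tamoxifen was given at E10.5, and nodes with the stage label E12.5 were taken 36 hours after it. Nodes of 1 genotype were pooled, endothelial cells were depleted with CD31 beads and tdTomato-positive cells were sorted. The sources used here give neither the number of embryos in a pool nor their sex. Isl1, the LIM-homeodomain gene that was targeted, was at 7.65 RPKM in control and 1.52 RPKM in mutant cells, 5.02-fold lower (interval for counting error 4.53 to 5.56).

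An imprinted gene is transcribed mainly from 1 parental copy, and DNA methylation laid down in the egg or sperm usually sets which one. Many imprinted genes act on growth of the embryo, and paternally expressed genes such as Igf2 tend to promote growth while maternally expressed genes such as Igf2r, Grb10, H19 and Cdkn1c tend to restrain it. Imprinted genes lie in clusters that share control elements, and many are abundant in embryonic mesoderm and decline after birth. The libraries do not distinguish the parental copies, so the values below are totals over both copies, and they say nothing about loss or retention of imprinting.

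The imprinted genes as a group lay near no difference, and a neighbouring pair on chromosome 6 stood apart. Mest and Copg2 were 2.41-fold and 2.20-fold higher in the mutant library, Igf2 was 1.60-fold higher, and no member was 2-fold lower. The sequences shown here are those that bear on this pair and on the noncoding members. The first set gives the 250 bases before a start site of Mest and Copg2, which differed together, and of Plagl1, a paternally expressed gene that differed by 1.02-fold. Capitals mark TGCCGC or its reverse complement GCGGCA, the core of the motif bound by the imprint-protecting zinc finger protein ZFP57 when it is methylated. Sequences are from RefSeq, build GRCm38.p6, 5′ to 3′ on the gene's strand, at chr6:30737800-30738049 (plus strand) for Mest, chr6:30896795-30897044 (minus strand) for Copg2 and chr10:13090582-13090831 (plus strand) for Plagl1.
Mest: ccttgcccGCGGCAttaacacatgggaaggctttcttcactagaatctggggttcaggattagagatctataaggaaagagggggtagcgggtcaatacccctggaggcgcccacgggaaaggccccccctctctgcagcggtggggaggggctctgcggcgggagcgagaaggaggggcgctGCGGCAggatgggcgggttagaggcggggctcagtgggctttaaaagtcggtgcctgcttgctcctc
Copg2: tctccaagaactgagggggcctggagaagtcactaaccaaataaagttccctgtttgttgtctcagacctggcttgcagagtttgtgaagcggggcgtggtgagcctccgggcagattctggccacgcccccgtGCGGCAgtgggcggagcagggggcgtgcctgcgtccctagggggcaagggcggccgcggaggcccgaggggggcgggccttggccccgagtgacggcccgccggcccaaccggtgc
Plagl1: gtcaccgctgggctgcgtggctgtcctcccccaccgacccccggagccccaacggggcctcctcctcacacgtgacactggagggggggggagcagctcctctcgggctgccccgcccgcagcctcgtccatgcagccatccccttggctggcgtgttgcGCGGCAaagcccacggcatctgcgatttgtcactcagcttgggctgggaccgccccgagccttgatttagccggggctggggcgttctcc

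The Mest window shown held the motif 2 times and the windows of Copg2 and Plagl1 once each, all as GCGGCA. The letters occurred on either strand in 8.68% of 32851 such windows of the mouse genome and in 7 of the 34 windows that matched a measured member (20.6%, 19 of 25 members matched). Of those 7 windows, 2 are nearly the same stretch of Mest, and a further Mest window held none. Member windows were also richer in CpG, with a median of 9 CpG beside 6 over all windows. Members with a match were Mest, Copg2, Plagl1, Zim1, Meg3 and Nap1l5, whose ratios ran from 2.41-fold higher (Mest) to 1.69-fold lower (Nap1l5). A match is a description of the letters, and no methylation was measured.

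The second set gives mature microRNAs that lie inside measured members in GRCm38.p6, with the seed, bases 2 to 8, in capitals. They are shown because 2 of their hairpin genes, Mir675 in H19 and Mir1906-1 in Meg3, have rows of their own in the table. Mir335 lies inside Mest and has no row.
mmu-miR-675-5p: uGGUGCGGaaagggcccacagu
mmu-miR-675-3p: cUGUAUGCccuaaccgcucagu
mmu-miR-1906: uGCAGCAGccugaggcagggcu
mmu-miR-335-5p: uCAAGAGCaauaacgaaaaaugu
No seed was shared among these 4. Libraries made from poly(A) RNA do not measure mature microRNAs, and the hairpin rows can hold reads of the host transcript over that stretch.

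Mest encodes an alpha/beta hydrolase-fold protein of embryonic mesoderm and is paternally expressed (chromosome 6, 30673547 to 30698457, plus strand, mm9). Mest measured 485 RPKM in control against 1167 RPKM in mutant cells, and where a pair of values follows below, the control value comes first. Its rank among all genes of the table, counted from the highest value, was 54 in the control and 23 in the mutant library, so it was the most abundant measured member in both. The ratio was 2.41, with an exact 95% interval of 2.39 to 2.42 from 134908 and 350807 reads. Such intervals here and below cover counting error only, since copied reads and mates of a pair are not independent molecules. In sorted bulk cells, a larger share of expressing cells and more RNA per cell cannot be told apart.

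Copg2 encodes a gamma subunit of the COPI coat, which carries cargo between the Golgi and the endoplasmic reticulum. It lies tail to tail with Mest on the minus strand (chromosome 6, 30697554 to 30846794) and is maternally expressed, with imprinting limited to some tissues. Copg2 had 68.9 RPKM in control cells and 151 RPKM in mutant ones, 2.20-fold higher (interval 2.17 to 2.23, from 30267 and 71852 reads). The parental classes of Mest and Copg2 are opposite, and both values were higher in the mutant library.

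The last 904 bases of both genes overlap on opposite strands, and the library kit does not mark strand. Of 32 counted parts of Mest that the table lists with a position, 7 begin inside this shared stretch, and the table lists 7 parts of exon 28, the last one listed, for Copg2. The shared stretch is 22.7% as long as the 3990 bases fitted as the counted length of Copg2. At the RPKM of Mest, 904 bases would hold 48300 reads in the control and 125596 in the mutant library, and all reads of Copg2 come to 62.7% and 57.2% of that. How many Copg2 reads come from Mest transcripts was not tested.

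Other coatomer genes, chosen after these values were seen, did not share the difference. Over 8 genes (Copa, Copb1, Copb2, Copg, Cope, Copz1, Copz2 and Arcn1) the mutant over control ratio ran from 0.845 to 1.15, with a median of 0.987. Copg, the gene of the other gamma subunit, stood at 54.3 RPKM in control and 53.4 RPKM in mutant cells.

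Genes around the pair were compared next. From -988 to 1593 kb around the start of Mest the table holds 14 other genes, and none of them was 2-fold different by the rule given below. The 6 of these that reach 5 RPKM had ratios between 0.731 and 1.10. Cpa5, a carboxypeptidase gene in this stretch named after its values were seen, went from 0.656 to 1.45 RPKM, a level too low for the rule. The plot of ratios by distance from Mest shows these genes.

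**Figure D1:**
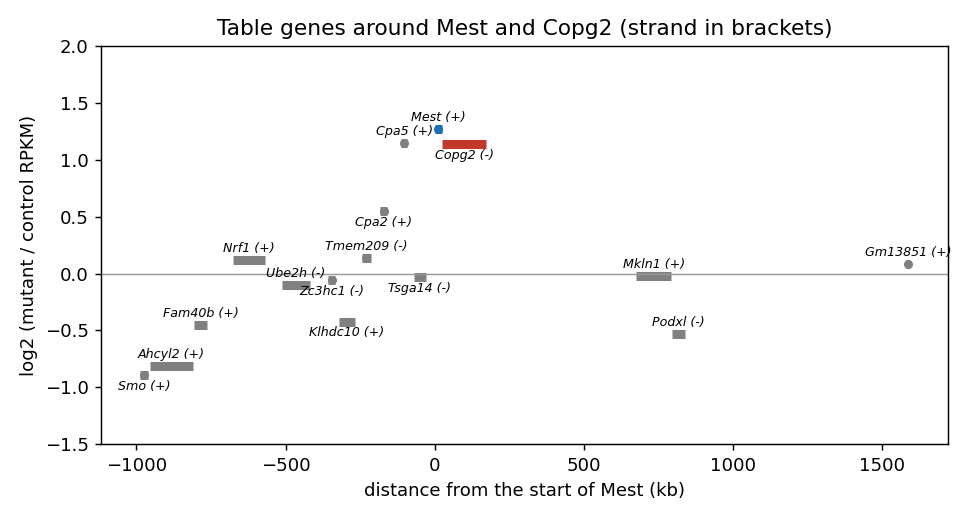
Log2 ratio of mutant to control RPKM (vertical axis) for the table genes around Mest, by distance from the start of Mest in kb (horizontal axis); each bar spans a gene and each dot marks its middle, with Mest in blue, Copg2 in red and the 14 other genes in grey. Mest and Copg2 lie above 1, and of the others only Cpa5, which stays below 5 RPKM, does as well.

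The size of all member differences was read against the whole table. A gene was called 2-fold different when log2((mutant RPKM + 1)/(control RPKM + 1)) was at least 1 in size and the gene reached 5 RPKM in at least 1 library. Of 20 members at that level, 2 were at least 2-fold higher (1.00% of all 6372 such genes were) and 0 were at least 2-fold lower (2.73% of all genes). At 1.5-fold, 3 members were higher (3.75% of all genes) and 0 were lower (11.9% of all genes), and the other 17 lay within 1.5-fold. These counts leave out the members that stay below 5 RPKM, which include those with the lowest ratios. By RPKM ratio, Mkrn3 was 1.91-fold, Ppp1r9a 1.71-fold, Nap1l5 1.69-fold and Meg3 1.27-fold lower, and Commd1 was 1.21-fold higher. By any amount, 11 of 25 members were higher (32.8% of all genes) and 14 were lower (67.2% of all genes). The median log2 ratio with the pseudocount of 1 RPKM was -0.05 over the members and -0.18 over all genes.

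The paternal and maternal classes had nearly the same median. The median log2 ratio on the same scale was -0.05 for the 12 paternally expressed genes and -0.05 for the 13 maternally expressed genes, a difference of -0.0018. Among paternally expressed genes 5 were higher and 7 lower, with log2 ratios of RPKM from -0.94 (Mkrn3) to 1.27 (Mest). Among maternally expressed genes 6 were higher and 7 lower, from -0.77 (Ppp1r9a) to 1.14 (Copg2). Each class held 1 gene at least 2-fold higher. That of the maternal class, Copg2, overlaps Mest, and how many of its reads come from Mest was not tested. In the maternal class, Copg2, Commd1, Nap1l4, Cd81, Trappc9 and Ppp1r9a are imprinted mainly in placenta or brain, by textbook assignment. Without them that class held 7 genes with a median of -0.05, and the paternal class stayed at 12 genes. The members of a class are not replicates, so no test of the classes was made.

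**Figure D2:**
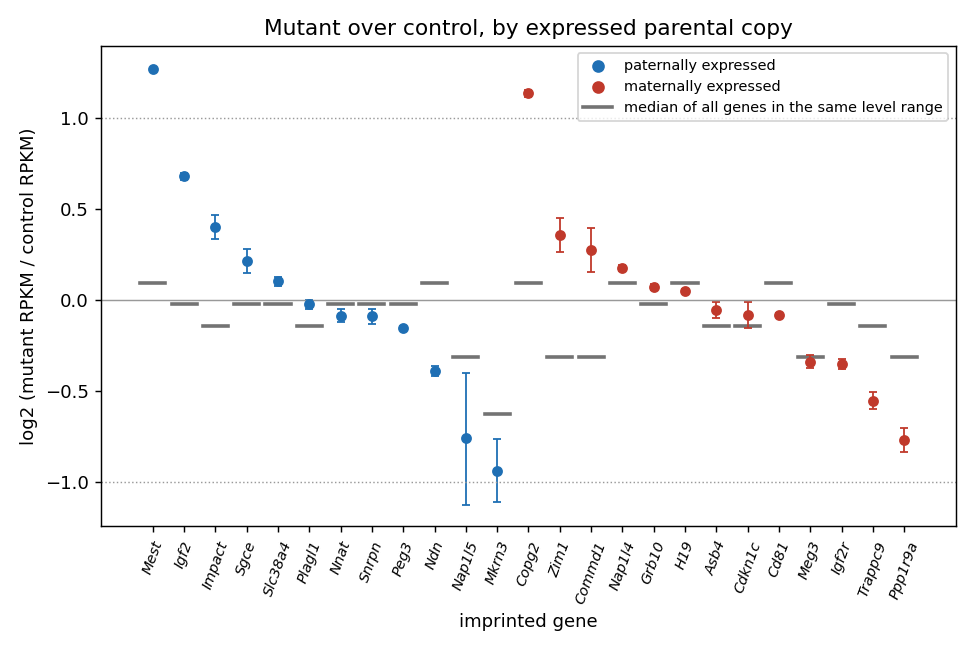
Log2 ratio of mutant to control RPKM (vertical axis) for the 12 paternally (blue) and 13 maternally (red) expressed genes; bars are exact 95% intervals for counting error, grey dashes the median of all table genes in the same level range, and dotted lines mark 2-fold. Both classes spread around 0, with Mest and Copg2 above the upper dotted line.

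The ratio moved with expression level across the whole table, and the members were therefore set beside genes of like level. The median log2 ratio of all genes was -0.63 below 2 RPKM, -0.31 from 2 to 5, -0.15 from 5 to 20, -0.02 from 20 to 100 and 0.09 at 100 RPKM or more, by the geometric mean of both libraries. Of the 25 members, 13 lay above the median of their level range, made up of 6 of 12 paternally and 7 of 13 maternally expressed genes. The members with the lowest ratios, Mkrn3, Ppp1r9a and Nap1l5, were also among the least abundant.

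**Figure D3:**
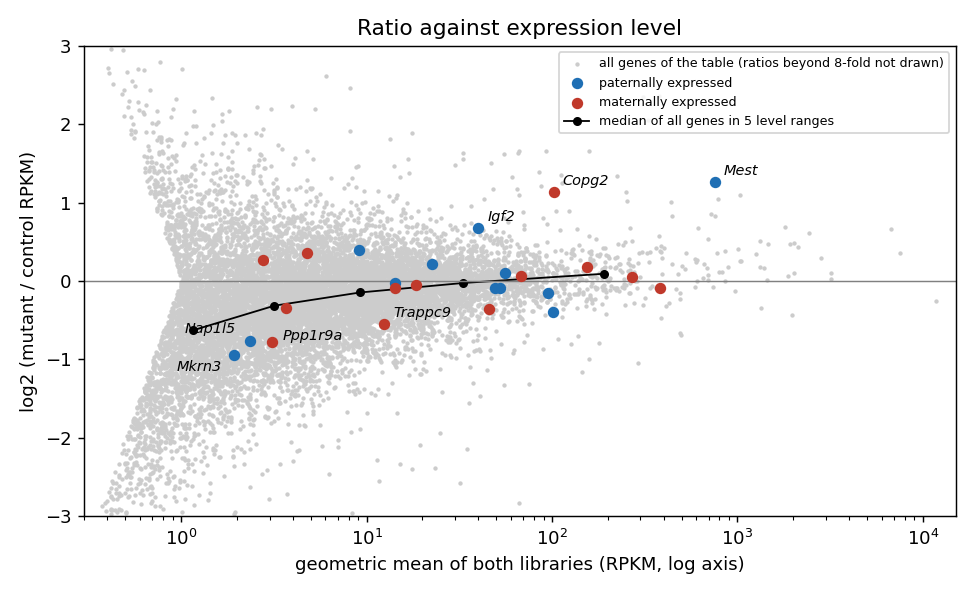
Log2 ratio of mutant to control RPKM (vertical axis) against the geometric mean of both libraries in RPKM (horizontal log axis) for all table genes (grey, ratios beyond 8-fold not drawn) and the imprinted genes (blue paternally, red maternally expressed); the black line joins the medians of 5 level ranges. The line runs from -0.63 to 0.09, and Mest, Copg2 and Igf2 lie above it.

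Among growth factor genes, Igf2 encodes the insulin-like growth factor that drives growth of the embryo and is paternally expressed (chromosome 7, 149836673 to 149852721). Igf2 measured 31.7 RPKM in control against 50.7 RPKM in mutant cells, 1.60-fold higher (interval 1.58 to 1.62). Igf2r, maternally expressed, encodes the receptor that takes IGF2 to the lysosome (chromosome 17, 12875272 to 12962530). Igf2r stood at 51.7 and 40.5 RPKM, 1.28-fold lower (interval 1.25 to 1.30). The growth factor gene was thus higher and the gene of its clearance receptor lower, both within 2-fold. Grb10, whose product dampens insulin and IGF1 receptor signalling, stood at 66.2 and 69.4 RPKM, a ratio of 1.05.

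Airn is the antisense RNA that starts inside Igf2r and, in most tissues, silences the paternal Igf2r copy. It shares 28354 bases with Igf2r and had 4.53 RPKM in control cells and 3.06 RPKM in mutant ones. Both genes of this pair were lower in the mutant library, and reads from their shared stretch cannot be separated.

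H19, the maternally expressed noncoding RNA that competes with Igf2 for shared enhancers (chromosome 7, 149761434 to 149764048), ranked 97 in the control and 108 in the mutant library. H19 stood at 266 RPKM in control and 275 RPKM in mutant cells, a ratio of 1.03 (interval 1.02 to 1.04). Its microRNA stretch Mir675, with the 2 arms printed above, stood at 347 and 327 RPKM, a ratio of 0.941 (interval 0.896 to 0.989). H19 therefore lay near no difference in the same libraries in which its neighbour Igf2 was 1.60-fold higher.

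Meg3, a maternally expressed noncoding RNA of the Dlk1 region (chromosome 12, 110779211 to 110809936), measured 4.12 RPKM in control against 3.26 RPKM in mutant cells, 1.27-fold lower. It was 1 of the 6 members with a geometric mean under 5 RPKM, a level that depends on the counted length. The length fitted for Meg3 was 29403 bases, beside a gene span of 30726 bases. Mir1906-1, a stretch of 80 bases in Meg3 with the microRNA printed above, stood at 37.1 and 36.4 RPKM, a ratio of 0.980 whose interval spans 1 (0.839 to 1.14). Gm17639, a gene on the opposite strand of the Meg3 end, stood at 3.23 and 2.99 RPKM, with a ratio whose interval spans 1 as well (0.814 to 1.06).

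Cdkn1c, maternally expressed, restrains growth through the cell cycle, as it encodes the cyclin-dependent kinase inhibitor p57. It had 14.7 RPKM in control cells and 13.8 RPKM in mutant ones, 1.06-fold lower (interval 1.01 to 1.11), though higher under upper-quartile scaling and with level bins subtracted. Other measured genes of its cluster on chromosome 7 were Cd81, a tetraspanin gene, and Nap1l4, a histone chaperone gene, both imprinted mainly in placenta. Cd81 stood at 394 and 371 RPKM and Nap1l4 at 146 and 165 RPKM. The log2 ratios of the 3 genes lay between -0.08 and 0.18. Cd81 shares 948 bases with R74862 (31.4 and 32.5 RPKM) on the opposite strand, and Nap1l4 contains the small RNA gene SNORA54 (1.59 and 1.00 RPKM).

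Among genes of zinc finger proteins, Plagl1, a paternally expressed gene of growth control, stood at 14.4 RPKM in control and 14.1 RPKM in mutant cells. The promoter window of Plagl1 is printed above. Peg3, a paternally expressed gene of a large zinc finger protein, stood at 99.9 and 89.7 RPKM, 1.11-fold lower (interval 1.11 to 1.12). Zim1, the maternally expressed zinc finger gene beside Peg3, stood at 4.20 and 5.37 RPKM, 1.28-fold higher (interval 1.20 to 1.36). The neighbours Peg3 and Zim1 thus differed in opposite directions, by 0.51 between their log2 ratios.

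Genes of the Prader-Willi region on chromosome 7, all paternally expressed, were lower in 3 of 3 measured cases as deposited (67.2% of all genes were), none by 2-fold on the rule, and Snrpn was higher under upper-quartile scaling. Ndn, which encodes the growth suppressor necdin, measured 116 RPKM in control against 88.7 RPKM in mutant cells, 1.31-fold lower (interval 1.29 to 1.33). Snrpn, which encodes a splicing protein, stood at 50.6 and 47.5 RPKM, 1.06-fold lower. Mkrn3, a ubiquitin ligase gene known for its part in the timing of puberty, stood at 2.67 and 1.39 RPKM, 1.91-fold lower (interval 1.70 to 2.16, from 753 and 425 reads). For genes below 2 RPKM, the level range of Mkrn3, the median log2 ratio was -0.63, beside -0.94 for Mkrn3.

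Around Sgce on chromosome 6, 3 genes were measured and their log2 ratios were spread over 0.98. Sgce, the paternally expressed gene of the membrane protein epsilon-sarcoglycan, had 20.9 RPKM in control cells and 24.3 RPKM in mutant ones, 1.16-fold higher (interval 1.11 to 1.21). Asb4, a maternally expressed gene of a ubiquitin ligase adaptor, stood at 18.8 and 18.1 RPKM, a ratio of 0.963. Ppp1r9a, which encodes the actin-binding protein neurabin, stood at 4.03 and 2.36 RPKM, 1.71-fold lower (interval 1.63 to 1.79). In the level range from 2 to 5 RPKM all genes had a median of -0.31 on the log2 scale, and Ppp1r9a was at -0.77.

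Other members came from clusters with 1 measured member each. Impact, a paternally expressed gene of a regulator of the amino acid sensor GCN2 (chromosome 18, 13122114 to 13151457), stood at 7.95 RPKM in control and 10.49 RPKM in mutant cells. The mutant value was 1.32-fold higher (1.26 to 1.38), while the median log2 ratio in its level range was -0.15. Slc38a4, a paternally expressed amino acid transporter gene, stood at 53.8 and 57.8 RPKM, 1.07-fold higher. Trappc9, a gene of vesicle tethering that is maternally expressed in brain, stood at 15.1 and 10.3 RPKM, 1.47-fold lower (interval 1.42 to 1.52).

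Nnat encodes a small membrane protein and lies inside an intron of Blcap, and Nap1l5 lies inside Herc3 in the same way. Nnat measured 54.1 RPKM in control against 50.9 RPKM in mutant cells. Its host Blcap stood at 5.14 and 5.34 RPKM, and AL672259.1, a short gene opposite the end of Nnat, at 17.95 and 20.8 RPKM. Nap1l5 stood at 3.05 and 1.80 RPKM, 1.69-fold lower with the widest interval of all members (1.32 to 2.18, from 166 and 106 reads). Its host Herc3 stood at 20.2 and 15.6 RPKM, 1.29-fold lower. Commd1, a gene of copper handling and protein sorting, stood at 2.51 and 3.04 RPKM, 1.21-fold higher. B3gnt2, which shares 26215 bases with Commd1 on the same strand, stood at 0.468 and 1.55 RPKM.

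**Figure D4:**
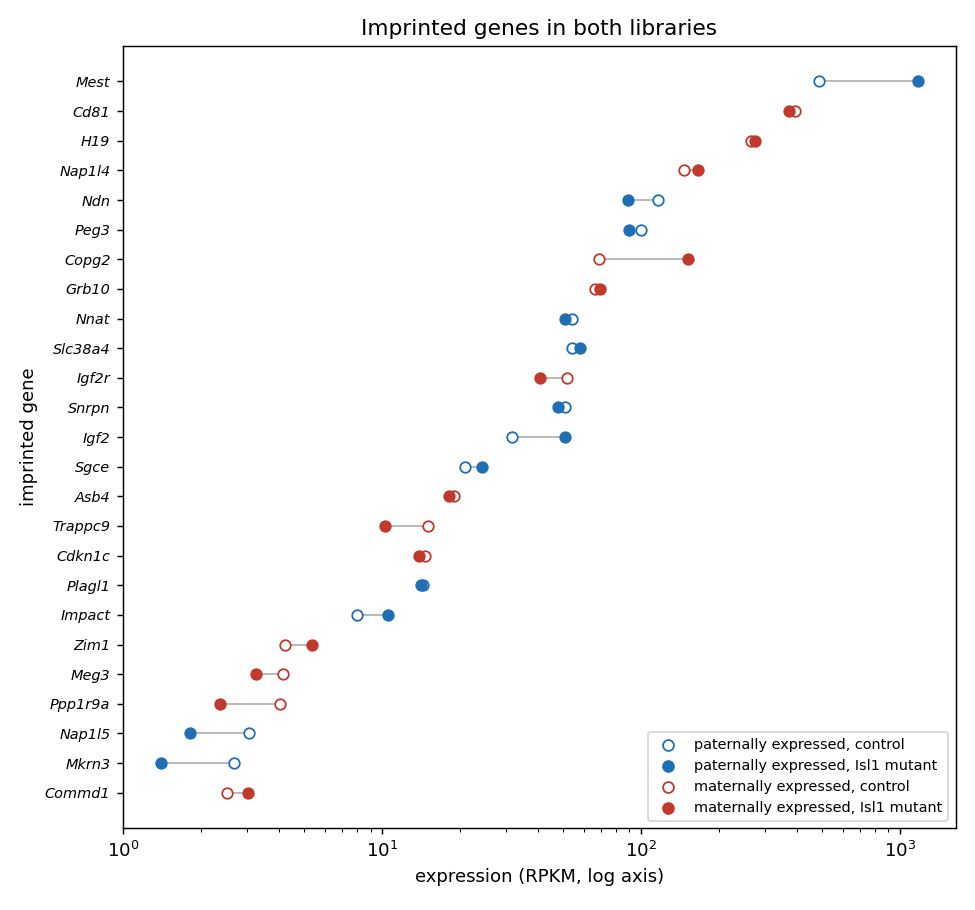
Expression in RPKM (horizontal log axis) of the 25 measured imprinted genes in the control library (open circles) and the Isl1 mutant library (filled circles), in order of the control value, with paternally expressed genes in blue and maternally expressed genes in red. Levels run from 2.51 RPKM (Commd1) to 485 RPKM (Mest) in the control library, and the longest shifts to the right are those of Mest and Copg2.

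The direction of the smallest differences depended on the scaling. Plagl1, Asb4, Cdkn1c, Cd81, Nnat and Snrpn, lower as deposited, were higher under upper-quartile scaling, which lowers the zero point to -0.12 (log2). Under it 17 members were higher and 8 lower, against 11 and 14 as deposited. Centring on genes at 5 RPKM in both libraries turned Plagl1 and Asb4, and subtracting the medians of 10 level bins turned Plagl1, Asb4 and Cdkn1c. All 11 members that were higher as deposited, Mest, Copg2 and Igf2 among them, stayed higher under every scaling that was tried. Peg3, Ndn, Igf2r, Meg3, Trappc9, Ppp1r9a, Nap1l5 and Mkrn3 were lower under each of them.

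Genes flanking the imprinted clusters were compared with the members by position. The nearest table genes outside the member list at 5 RPKM or more, up to 2 on each side of 16 clusters, came to 61 genes. Of these, 5 (Ube3a, Tssc4, Osbpl5, Cobl and Casd1) also stand in the list of further genes of imprinted regions described below. The median distance of the 61 genes from their cluster was 402 kb, so many are not close neighbours. The log2 ratios of the 61 genes had a median of -0.04 (-0.01 without those 5, a check chosen after seeing the data) and ran from -1.30 (Col1a2, beside Sgce) to 1.82 (Tnnt3, beside H19), both named after their values were seen. Of the 61 genes 27 were higher (32.8% of all genes of the table, a share counted without the 5 RPKM floor). At 2-fold, 3 of them were called higher (1.00% of all genes at 5 RPKM) and 1 lower (2.73%), and none of these calls was among the 5. Of those called higher, Tnnt3 lay 59520 bases from the cluster of Igf2 and H19. Ndrg1 lay 5618849 bases and Sbk2 1712204 bases from the cluster beside them, both named after their values were seen.

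Partners of IGF signalling were lower, by any amount, about as often as all genes. Of 20 listed genes 16 were measured, and 11 of them (68.8%) were lower, beside 67.2% of all genes. Their median log2 ratio was -0.17, beside -0.18 for all genes. Of the 8 that reach 5 RPKM, 0 were at least 2-fold higher (1.00% of all such genes) and 2 were at least 2-fold lower (2.73%). At 1.5-fold, 1 of the 8 was higher (3.75% of all such genes) and 4 were lower (11.9%). Igf1, the other growth factor of the axis, had 5.75 RPKM in control cells and 1.81 RPKM in mutant ones, 3.17-fold lower. Igfbp5, an abundant IGF-binding protein gene, stood at 218 and 97.5 RPKM, 2.24-fold lower, and Igfbp4, another, at 6.38 and 2.88 RPKM. Akt1, a kinase gene downstream of the receptors, stood at 35.8 and 20.9 RPKM. Igf2bp1, which encodes a protein that binds Igf2 messenger RNA and is named after its values were seen, stood at 7.71 and 12.6 RPKM, 1.64-fold higher.

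Genes that maintain imprints or methylate DNA were lower in 17 of 17 measured cases as deposited (67.2% of all genes) and in 13 under upper-quartile scaling (57.5% of all genes). There were 18 listed genes, and the median log2 ratio as deposited was -0.40. Of the 11 that reach 5 RPKM, 1 was at least 2-fold lower (2.73% of all such genes), Ehmt2, the gene of the histone methyltransferase G9a, which went from 9.91 to 3.71 RPKM (2.67-fold lower). Arid4b, a chromatin gene, went from 10.4 to 6.43 RPKM, Trim28, the corepressor gene that acts with ZFP57, from 28.7 to 18.2 RPKM, and Dnmt3a, a DNA methyltransferase gene, from 20.6 to 13.9 RPKM. Ctcf, the insulator protein gene of the region between Igf2 and H19, differed least in this list, was named after its values were seen, and stood at 6.21 and 6.18 RPKM.

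Further genes of imprinted regions, with 26 of 35 measured, were higher in 5 and lower in 21 cases (67.2% of all genes were lower). Under upper-quartile scaling 19 were lower (57.5% of all genes). The median log2 ratio was -0.35, beside -0.18 for all genes, and of the 17 that reach 5 RPKM 0 were called 2-fold different. At 5 RPKM or more, the 4 genes with ratios farthest from 1 were all lower in the mutant library. Xist, the RNA of X inactivation, went from 7.21 to 3.68 RPKM, and Gatm, a gene of creatine synthesis, from 5.49 to 2.84 RPKM. H13, a signal peptide peptidase gene, went from 9.95 to 5.54 RPKM, and Ube3a, a ubiquitin ligase gene, from 11.9 to 6.71 RPKM. The sex of the pooled embryos is not given, and whether the genes of this list are imprinted in the cells used was not measured.

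Cell type markers differed between the libraries and are given as measured facts beside the values above. Summed RPKM of 10 heart muscle genes was 1.45-fold higher in the mutant library (13844 to 20099, 9 of 10 higher), Nppa among them at 5.13-fold. Fibroblast and cushion mesenchyme markers were lower in 11 of 11 cases (sum 522 to 232 RPKM), macrophage and blood markers in 9 of 9 (47.0 to 8.68) and erythroid genes in 11 of 11 (416 to 71.9). Endothelial markers were lower in 7 of 8 cases (25.1 to 12.9) and pacemaker markers, Isl1 included, in 8 of 8 (221 to 121), with Hcn4 at 1.99 RPKM in the control library. Epicardial markers were higher in 4 of 8 cases (109 to 137), neural markers lower in 4 of 5 (20.1 to 16.2) and liver genes lower in 4 of 5 (37.7 to 21.4). No measured marker was at 0, and the counts were the same under both scalings, a check chosen after seeing the data. Markers not measured here included Thy1, Cdh5, Flt1, Tyrobp and Apoa2. The part of these markers in the values of Mest, Copg2, Igf2 and the other imprinted genes was not tested.

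Within these lists, members called 2-fold different were, besides Nppa and Isl1, the pacemaker genes Cacna1d and Tbx3, the mesenchymal genes Col1a2, Col3a1, Pdgfrb, Mfap4 and Pdgfra, the blood genes C1qb, Csf1r and Laptm5, 8 erythroid genes (Hba-x, Alas2, Hbb-b2, Hbb-b1, Hba-a2, Car2, Hba-a1 and Hbb-y), Krt19 and Afp. The globin genes are near-identical copies that can share reads, so their separate values are uncertain. Of all the genes named here Nppa and Krt19 were higher and the rest lower. Among the mesenchymal markers, Pdgfra went from 9.53 to 1.45 RPKM and Mfap4 from 73.2 to 16.6 RPKM, the largest falls by ratio. Fbln1, named after its values were seen, had the smallest, from 39.9 to 28.8 RPKM.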

How the data were processed

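Messenger RNA of cells sorted from pooled nodes was sequenced, 1 library per genotype, from 10 ng of total RNA in 90 bp read pairs, per the labels' protocols. The submitters' processing notes list Trim Galore, FastQC, TopHat2, Bowtie2 and mm9, without versions. The deposited values are RPKM for each gene and library, made by the authors over constitutive exons, per the file headers. The unit was read from the values: for 284 small RNA genes, value times length gave whole reads within 0.01 in 284 genes (control) and 276 genes (mutant), with library totals of 110117186 and 119018888 reads. Recomputing the deposited log2 fold change from both values reproduced it within 1.89e-07. The signed fold, a score deposited by the authors, was not used.

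Reads of all 25 measured members were recovered as the smallest whole numbers fitting both values. The fitted lengths exceed the listed gene span for H19 (2824 against 2615 bases) and Ndn (1950 against 1652), so reads can be too low or too high and intervals too wide or too narrow. Fold intervals are exact conditional binomial 95% intervals. Folds in the text are RPKM ratios without a pseudocount. Medians use log2((mutant + 1)/(control + 1)) for genes that reach 1 RPKM, a scale that understates changes of low genes. For other lists, the most abundant entry of a symbol was kept. Cells, embryos and parental copies cannot be separated.

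Members, lists and rules were chosen with earlier results of these data known. Named genes were all measured members, Isl1 and genes overlapping a member. In each other list, up to 4 genes with the largest log2 ratios in size at 5 RPKM or more were named, and any 2-fold difference. Alternatives were other pseudocounts, scalings, level floors and thresholds, means, and member subsets, and, chosen after seeing the data, scalings of the other lists. Analyses used Python 3.11.15, pandas 2.3.3, numpy 2.4.6 and scipy 1.17.1, and scripts were tested on simulated data.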

Additional observations from a re-analysis of the deposited data

How the results depend on the processing

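Each genotype has 1 library, so no library could be left out. No paired analysis was possible because there is 1 library per genotype. Among members, 2 at least 2-fold higher and 0 lower were found with pseudocounts of 0.1 and 5, with both scalings, with level bins subtracted, with a floor of 1 RPKM and with no pseudocount. The count of higher members was 1 without genes imprinted mainly in placenta or brain, which leaves out Copg2, and 0 without the 10 members that overlap another table gene, which leaves out Mest and Copg2. The median log2 ratio of all members, -0.05 as reported, was 0.017 when centred on the genes that reach 5 RPKM in both libraries, 0.065 under upper-quartile scaling, 0.030 with the medians of 10 level bins subtracted, 0.013 with a floor of 5 RPKM and 0.028 as a mean. For paternally expressed members these values were 0.016, 0.065, -0.011, 0.039 and 0.059, and -0.023 without overlapping members. For maternally expressed members they were 0.017, 0.065, 0.030, -0.0015 and -0.00055. The paternal minus maternal difference was 0.060 with means and ran from -0.041 to 0.042 under the other alternatives. The cause of these shifts was not tested. Counting precision was lowest for Nap1l5, Mkrn3 and Commd1, and the spread between embryos is unknown.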
